A study of Volvox carteri with 4 samples.

Results

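Genes for nitrogen assimilation and for the first steps of amino acid metabolism were examined in the 2 cell-types of the multicellular green alga Volvox carteri. The group holds 9 of the 16008 gene models counted, taken by name and locus from the study's own gene lists: nitA (Vocar.0008s0140), GSN1 (Vocar.0064s0005), GS3 (Vocar.0011s0254), AST1 (Vocar.0033s0131), AST2 (Vocar.0001s0411), AST3 (Vocar.0012s0085), AST5 (Vocar.0002s0199), GDH1 (Vocar.0003s0460) and GDH2 (Vocar.0033s0159). All 9 passed the filter on low counts. They encode nitrate reductase, NADH-dependent glutamate synthase, 1 glutamine synthetase, 4 aspartate aminotransferases and 2 glutamate dehydrogenases. The other 5 genes that the study files under amino acid biosynthesis, GSF1, GS1, GS2, GS4 and ASNS, were followed beside them.

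RNA was sequenced from somatic cells, the small flagellated cells of the spheroid surface that do not divide, and from gonidia, the large asexual reproductive cells, with 2 libraries of each. All 4 libraries came from hatched adult spheroids of the strain Eve at hour 42 of the 48 h life cycle, which is 6 h into the second light period, and the labels name no treatment or mutation. Each library was a separate preparation, and a culture gave cells of 1 type only, by mechanical disruption and Percoll centrifugation followed by inspection for purity. The libraries therefore differ in cell-type and in the purification that went with it, and these cannot be told apart.

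Nitrate taken up by a green alga is reduced by nitrate reductase to nitrite and then by nitrite reductase to ammonium. Glutamine synthetase adds ammonium to glutamate, and glutamate synthase (GOGAT) moves the amide group of glutamine onto 2-oxoglutarate, a TCA cycle intermediate, to give glutamate. Aspartate aminotransferase exchanges amino groups between glutamate and oxaloacetate and so joins the amino acids to the TCA cycle, whereas glutamate dehydrogenase releases ammonium from glutamate and returns 2-oxoglutarate, or runs in the other direction.

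Counts summed to 10838222 and 13104583 in the somatic libraries and to 11583555 and 11650101 in the gonidial libraries. Values per library are normalized counts, that is, counts divided by the library size that is left after removal of the upper 0.3% quantile, relative to the mean of the 4 sizes. Log2 fold changes are somatic over gonidial, with a standard error (SE) from edgeR's fit. A gene was called somatic or gonidial at an adjusted p under 0.05 with at least a 2-fold change. The somatic markers followed the labels. The somatic regulator regA had 486 and 786 counts in the somatic libraries, against 1 and 0 counts in the gonidial libraries, and 117 of 121 somatic markers (flagellar genes, regA and the extracellular matrix gene ssgA) were called somatic. Their summed normalized level in gonidial libraries was 4.96% to 5.04% of the somatic mean. Of 19 genes known from gonidial cDNA clones, 2 were called somatic and 9 gonidial, beside 26.0% and 46.7% of all genes tested. Their median log2 fold change was -0.94, against -0.85 over all genes tested, so this list is not read as a check of the labels. Its summed level in somatic libraries was 43.4% to 56.3% of the gonidial mean. A single gene picked after its values were seen, Vocar.0001s0298, had 0 and 1 counts in somatic libraries, against 5039 and 5050 counts in gonidial libraries.

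Of the 9 genes, 3 were called somatic (GS3, GDH1 and GDH2) and 6 gonidial (nitA, GSN1, AST1, AST2, AST3 and AST5). Across all 13350 genes tested, 26.0% were called somatic and 46.7% gonidial, and with so few members neither count is read as a departure from that. The 2 somatic and the 2 gonidial libraries did not overlap for any of the 9 genes, which was also so for 90.6% of all genes tested. The median log2 fold change was -2.75 over the 9 genes and -0.85 over all genes tested. The split of the calls depends on the scaling of the libraries: 64.2% of all calls were gonidial here, against 54.1% with TMM and 51.9% with DESeq2's size factors, which raised the median of all genes by 0.59 and 0.71 on the log2 scale. Of all genes tested, 32.2% were then called somatic and 38.0% gonidial with TMM, and 33.6% somatic and 36.2% gonidial with DESeq2's size factors. The 9 members had the same calls under both scalings. The RNA is bulk RNA scaled within each library, so the values are relative to the library and give no amount of RNA per cell.

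**Figure D1:**
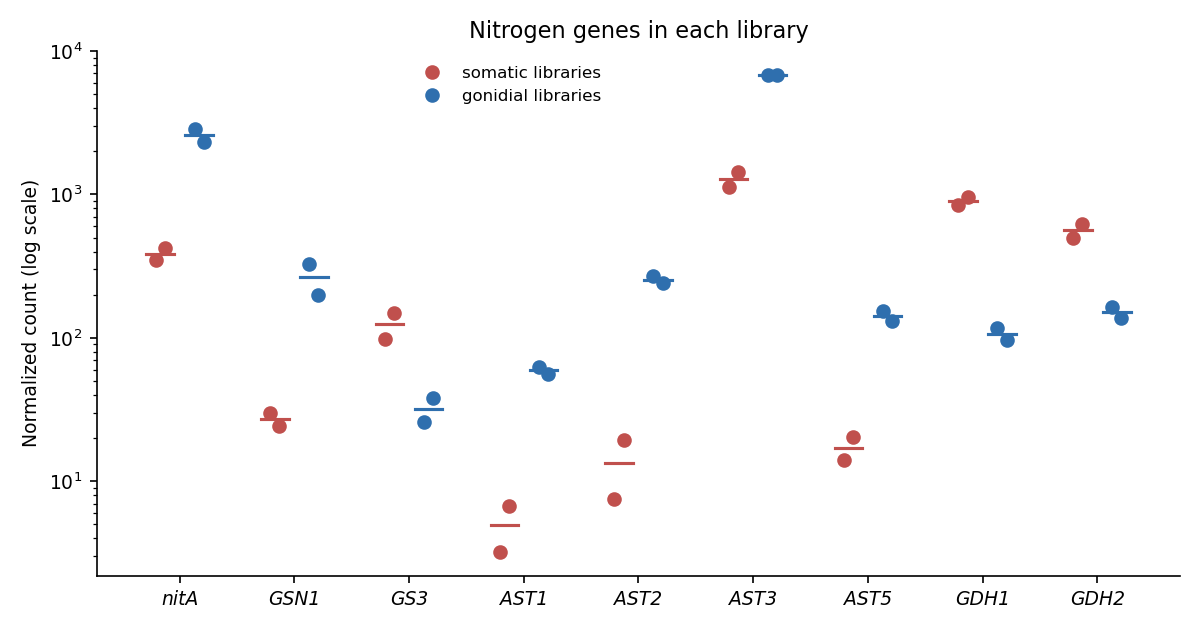
Normalized counts (log axis) of the 9 nitrogen genes, with 1 point for each somatic library (red) and gonidial library (blue) and a bar at the mean of each cell-type. Somatic points lie below the gonidial points for nitA, GSN1, AST1, AST2, AST3 and AST5 and above them for GS3, GDH1 and GDH2.

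Nitrate reductase opens the pathway. Normalized counts of nitA were 349.2 and 423.3 in the somatic libraries, against 2885 and 2315 in the gonidial libraries. The lowest gonidial library stood 5.47-fold above the highest somatic one, and the replicates differed 1.21-fold in somatic cells and 1.25-fold in gonidia. By edgeR's quasi-likelihood test nitA was gonidial, with a log2 fold change of -2.75 (SE 0.225, adjusted p = 2.94e-09), and the somatic mean was 14.9% of the gonidial mean. Although this is a large change for 1 gene, 23.8% of all genes tested had a lower log2 fold change.

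Glutamate synthase is encoded by a pair of genes of very unequal level. GSN1, the NADH-dependent form, had 30.08 and 24.46 normalized counts in the somatic libraries, against 329.6 and 199.6 in the gonidial libraries. The somatic libraries were both low and close to each other, whereas the gonidial libraries differed 1.65-fold. Its log2 fold change was -3.28 (SE 0.336, adjusted p = 3.14e-08 by edgeR's quasi-likelihood fit), a gonidial call. From the summed raw counts, 57 in somatic and 501 in gonidial libraries, the gonidial level was 9.88-fold the somatic one, with a 95% counting interval of 7.50 to 13.2 that covers counting error only.

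GSF1, the ferredoxin-dependent form that draws on electrons from photosynthesis, had 2353 and 3417 normalized counts in the somatic libraries, against 7974 and 7236 in the gonidial libraries. It too was called gonidial, at a log2 fold change of -1.40 (SE 0.216, adjusted p = 9.32e-06 in the edgeR quasi-likelihood test). The call was lost with TMM, at -0.81, and with DESeq2's size factors, at -0.69, because the change was then under 2-fold. Per kilobase of transcript, GSN1 made up 1.06% and 0.594% of the summed GOGAT level in the somatic libraries, against 3.34% and 2.25% in the gonidial libraries. GSF1 therefore carried nearly all glutamate synthase transcript in both cell-types, and the NADH-dependent gene had the wider difference between them.

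The 4 glutamine synthetase genes did not move together. GS3 had 98.84 and 150.1 normalized counts in the somatic libraries, against 26.00 and 37.97 in the gonidial libraries. It was the member with the narrowest space between the cell-types, 2.60-fold from the lowest somatic to the highest gonidial library, and its replicates also differed, 1.52-fold between the somatic libraries. The call was somatic, with a log2 fold change of 1.97 (SE 0.345, adjusted p = 3.02e-05 by edgeR's quasi-likelihood fit).

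GS4 went the other way. Its normalized counts were 782.1 and 901.5 in the somatic libraries, against 3940 and 4278 in the gonidial libraries. The log2 fold change was -2.29 (SE 0.209, adjusted p = 1.19e-08 in the edgeR quasi-likelihood test), called gonidial. GS1 had 2494 and 2735 normalized counts in the somatic libraries, against 5079 and 5125 in the gonidial libraries. It passed the adjusted p but not the 2-fold line, at a log2 fold change of -0.96 (SE 0.200, adjusted p = 0.000227 by edgeR's quasi-likelihood fit), and without somatic replicate 2 the value was -1.03 and the gene was called. With TMM the GS1 value was -0.37 (adjusted p = 0.101 in the edgeR quasi-likelihood test) and with DESeq2's size factors it was -0.25 (adjusted p = 0.253), so that it no longer passed the test.

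GS2, the most abundant of the 14 nitrogen genes per kilobase in both cell-types, had 9404 and 9182 normalized counts in the somatic libraries, against 11010 and 11390 in the gonidial libraries. Its log2 fold change of -0.27 (SE 0.192, 95% interval -0.65 to 0.11, adjusted p = 0.201 in the edgeR quasi-likelihood test) did not pass the test. The sign of this value turned with the scaling, to 0.33 with TMM and 0.44 with DESeq2's size factors. GS2 and GS4 have adjacent locus numbers (Vocar.0028s0089 and Vocar.0028s0090). Since only uniquely mapped reads were counted, stretches that these or other copies share gave no counts.

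Per kilobase, GS2 held 79.0% and 76.6% of the summed glutamine synthetase level in the somatic libraries, against 62.7% and 62.6% in the gonidial libraries. GS4 held 4.37% and 5.01% in the somatic libraries, against 14.9% and 15.6% in the gonidial libraries. GS3 came to 0.505% and 0.762% in the somatic libraries, against 0.0900% and 0.127% in the gonidial libraries. The only glutamine synthetase gene called somatic was thus the one with the least transcript, and the summed level of all 4 genes had a log2 ratio of -0.58, whose sign turned to 0.015 with TMM and 0.13 with DESeq2's size factors.

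**Figure D2:**
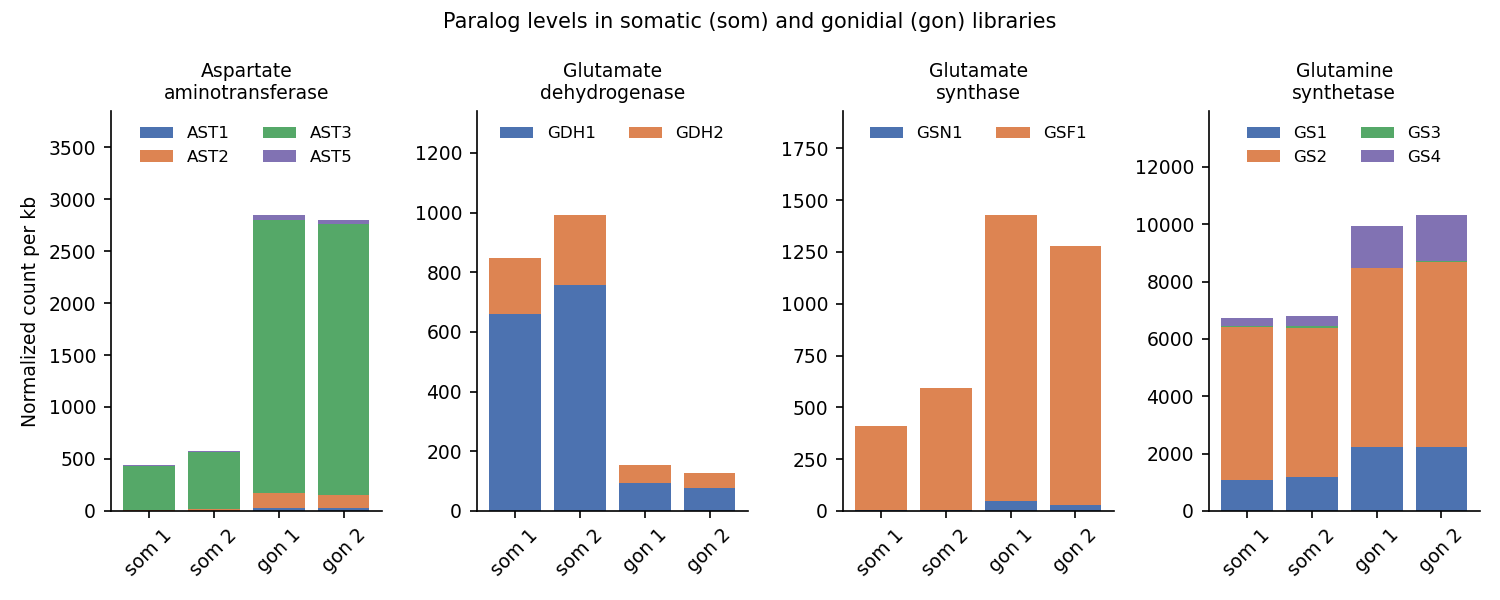
Normalized counts per kilobase, summed over the genes of each of 4 enzyme families, in each somatic (som) and gonidial (gon) library, with 1 colour for each gene. Bars start at 0 and scales differ between panels. AST3, GSF1 and GS2 fill most of their bars in all 4 libraries, and only the glutamate dehydrogenase bars are higher in somatic libraries.

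All 4 aspartate aminotransferase genes were called gonidial. AST3 was by far the most abundant, with 1122 and 1444 normalized counts in the somatic libraries, against 6856 and 6791 in the gonidial libraries. The gonidial libraries were nearly equal and both lay at least 4.70-fold above the somatic ones. The log2 fold change was -2.41 (SE 0.208, adjusted p = 5.63e-09 by edgeR's quasi-likelihood fit).

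AST2 had 7.52 and 19.40 normalized counts in the somatic libraries, against 268.3 and 241.9 in the gonidial libraries. This was the largest change among the 9 genes, a log2 fold change of -4.18 (SE 0.389, adjusted p = 3.97e-09 in the edgeR quasi-likelihood test), although 11.4% of all genes tested had a lower one. The somatic libraries differed 2.58-fold for AST2, and only 9.46% of all genes tested had a larger gap between them. Without somatic replicate 2 the log2 fold change was -5.06, and without somatic replicate 1 it was -3.71. Raw counts of 30 in somatic and 481 in gonidial libraries put the gonidial level at 18-fold the somatic one, with a 95% counting interval of 12.5 to 27.0.

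AST5 had 13.97 and 20.24 normalized counts in the somatic libraries, against 152.9 and 131.3 in the gonidial libraries. Its log2 fold change was -3.03 (SE 0.357, adjusted p = 1.44e-07 by edgeR's quasi-likelihood fit). The somatic replicates differed 1.45-fold. AST1 was the least abundant aminotransferase gene. It had 3 and 8 raw counts in the somatic libraries, against 60 and 52 raw counts in the gonidial libraries, or 3.22 and 6.75 normalized counts against 62.39 and 56.41. The count of somatic replicate 1 equals the 3 counts that a count of 0 allows, and that of somatic replicate 2 lies above them. The log2 fold change of -3.49 (SE 0.536, adjusted p = 1.17e-06 in the edgeR quasi-likelihood test) had the largest error of the 9 genes and was -4.15 without somatic replicate 2. The summed counts put the gonidial level at 11.4-fold the somatic one, with a counting interval of 6.16 to 23.6.

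The summed level of the 4 genes was 440.4 and 573.8 normalized counts per kilobase in the somatic libraries, against 2850 and 2801 in the gonidial libraries. AST3 gave 97.8% and 96.6% of it in the somatic libraries, against 92.3% and 93.0% in the gonidial libraries. AST2 gave 0.905% and 1.79% in the somatic libraries, against 4.99% and 4.58% in the gonidial libraries. The change in aminotransferase transcript was therefore mostly that of 1 gene, and AST1, AST2 and AST5 each added at most 4.99% while having larger fold changes than AST3.

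ASNS encodes asparagine synthetase, which makes asparagine from aspartate with the amide group of glutamine. Its normalized counts were 518.9 and 745.5 in the somatic libraries, against 1818 and 1854 in the gonidial libraries. The gene was called gonidial at a log2 fold change of -1.54 (SE 0.231, adjusted p = 6.60e-06 by edgeR's quasi-likelihood fit). As with GSF1, the call was lost with TMM, at -0.95, and with DESeq2's size factors, at -0.83. Of the 5 further amino acid genes, 0 were called somatic and 3 gonidial, beside 26.0% and 46.7% of all genes, and only GS4 kept its call under both scalings. None of the 5 was called somatic under any of the 12 alternatives run.

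Both glutamate dehydrogenase genes were called somatic. GDH1 had 841.2 and 963.1 normalized counts in the somatic libraries, against 117.5 and 96.55 in the gonidial libraries. The lowest somatic library lay 7.16-fold above the highest gonidial one. The log2 fold change was 3.07 (SE 0.248, adjusted p = 2.19e-09 in the edgeR quasi-likelihood test), and 13.3% of all genes tested had a higher one.

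GDH2 had 498.5 and 624.1 normalized counts in the somatic libraries, against 163.3 and 137.8 in the gonidial libraries. Its log2 fold change was 1.90 (SE 0.249, adjusted p = 1.19e-06 by edgeR's quasi-likelihood fit). The summed level of both genes was 848.6 and 991.7 normalized counts per kilobase in the somatic libraries, against 154.0 and 127.9 in the gonidial libraries. GDH1 made up 77.7% and 76.2% of that sum in the somatic libraries, against 59.8% and 59.2% in the gonidial libraries, so that GDH1 was the more abundant form in both cell-types and GDH2 held a larger share in gonidia.

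The gonidial mean was 11.9% of the somatic mean for GDH1, 26.8% for GDH2 and 25.7% for GS3. Each was above the 4.96% to 5.04% that somatic markers reached in the same gonidial libraries. That level is a sum over 121 genes, of which 117 were called somatic, with a median log2 fold change of 6.005. Single markers stood on both sides of it, and the 2 that follow stood lower. Normalized counts of regA were 522.1 and 662.9 in the somatic libraries, against 1.04 and 0 in the gonidial libraries. Those of ssgA were 67710 and 63050, against 34.31 and 43.4. In the other direction, the somatic mean was 5.28% of the gonidial mean for AST2, 8.39% for AST1 and 10.3% for GSN1. It was 12.0% for AST5, 14.9% for nitA and 18.8% for AST3. The gonidial marker list stood at 43.4% to 56.3% in the somatic libraries. The part of RNA from the other cell-type in these lower values was not tested.

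**Figure D3:**
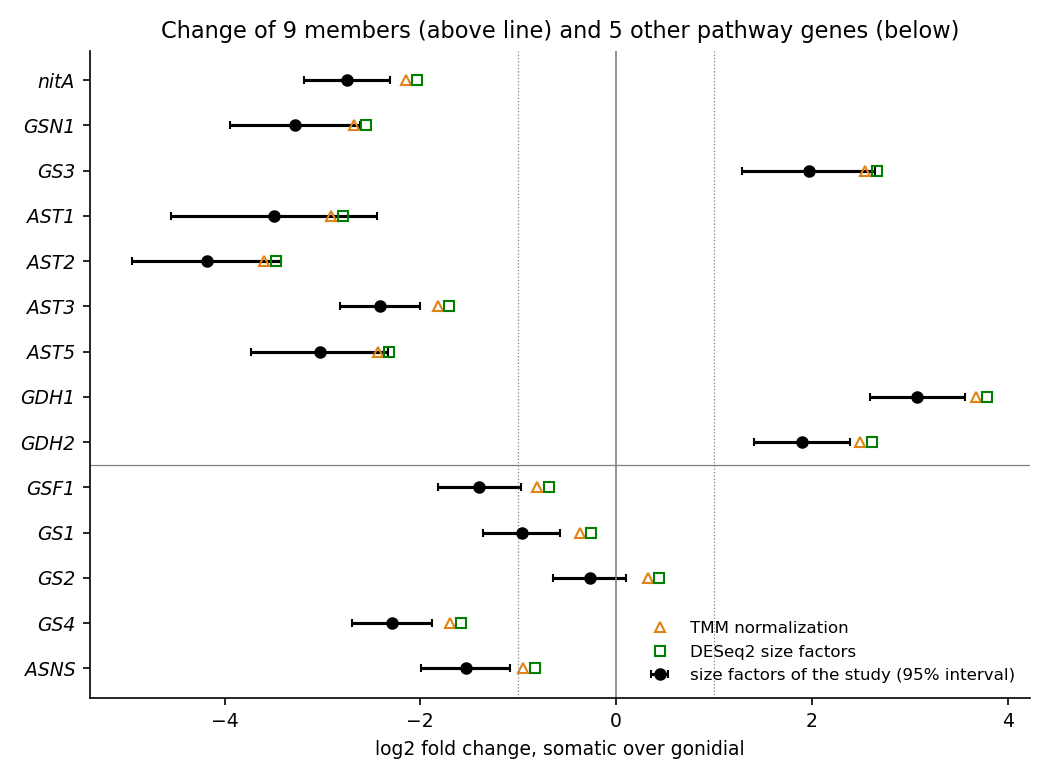
Log2 fold change, somatic over gonidial, of the 9 nitrogen genes (above the line) and the 5 other amino acid genes (below it), with black points and 95% intervals from edgeR's fit and open symbols for TMM and DESeq2's size factors. Dotted lines mark a 2-fold change. Under all 3 scalings the 9 genes stay outside the dotted lines on the same side, whereas GSF1 and ASNS move inside them and GS2 crosses 0.

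The study's terms set a further line at 5-fold, above which a called gene is cell-type-specific and below which it is biased. By the fitted fold change of each gene alone, 7 of the 9 genes were specific and 2, GS3 and GDH2, were biased. The paper instead reports GDH1 and GDH2 together as somatic-specific, and it sums paralogs taken to be alike in function. Summed per kilobase, GDH1 and GDH2 were 6.53-fold higher in somatic cells here. With TMM 7 genes were again past the line but not the same ones, since nitA and AST3 dropped below it while GS3 and GDH2 passed it. With DESeq2's size factors 6 genes were past it, and AST5 was also below. GSN1, AST1, AST2 and GDH1 were past 5-fold under all 3 scalings. The share of all genes tested that passed this line was not counted, so these numbers are not read as particular to the 9 genes.

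Ratios of 2 genes within 1 library do not depend on how libraries are scaled. The log2 ratio of GDH1 to GSN1 counts was 4.78 and 5.28 in the somatic libraries, against -1.48 and -1.04 in the gonidial libraries. The difference between the cell-types was 6.29. Raw counts also scale with transcript length, so that the sign of a ratio gives no order of levels, and per kilobase GDH1 lay above GSN1 in both cell-types. For nitA over GDH1 the log2 ratio was -1.27 and -1.18 in the somatic libraries, against 4.61 and 4.58 in the gonidial libraries. Here the order was reversed per kilobase as well, with nitA at a mean of 102.6 and GDH1 at 707.5 normalized counts per kilobase in somatic cells, against 690.2 and 83.93 in gonidia. For GDH1 over AST3 it was -0.42 and -0.58 in the somatic libraries, against -5.86 and -6.13 in the gonidial libraries, a difference of 5.49.

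Ratios within a family differed less between the cell-types than these 3, and most for glutamine synthetase. The log2 ratio of GS3 to GS4 was -2.98 and -2.58 in the somatic libraries, against -7.22 and -6.80 in the gonidial libraries, a difference of 4.23. GDH1 over GDH2 differed by 1.18, GSN1 over GSF1 by -1.80 and AST2 over AST3 by -1.91. For each of the 7 ratios the somatic and gonidial libraries did not overlap, and a two-sided exact permutation test over the 4 libraries gave p = 0.33, the smallest that 2 against 2 libraries allow (0.33 after adjustment over the 7 ratios). This design cannot reach a p under 0.05 for a single ratio. The pairs GDH1 and GSN1, GDH1 and AST3, nitA and GDH1, and GS3 and GS4 each join a somatic with a gonidial gene. Their separation therefore follows from the calls. Libraries did not overlap for 90.6% of single genes tested, and the share over gene pairs at large was not counted.

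**Figure D4:**
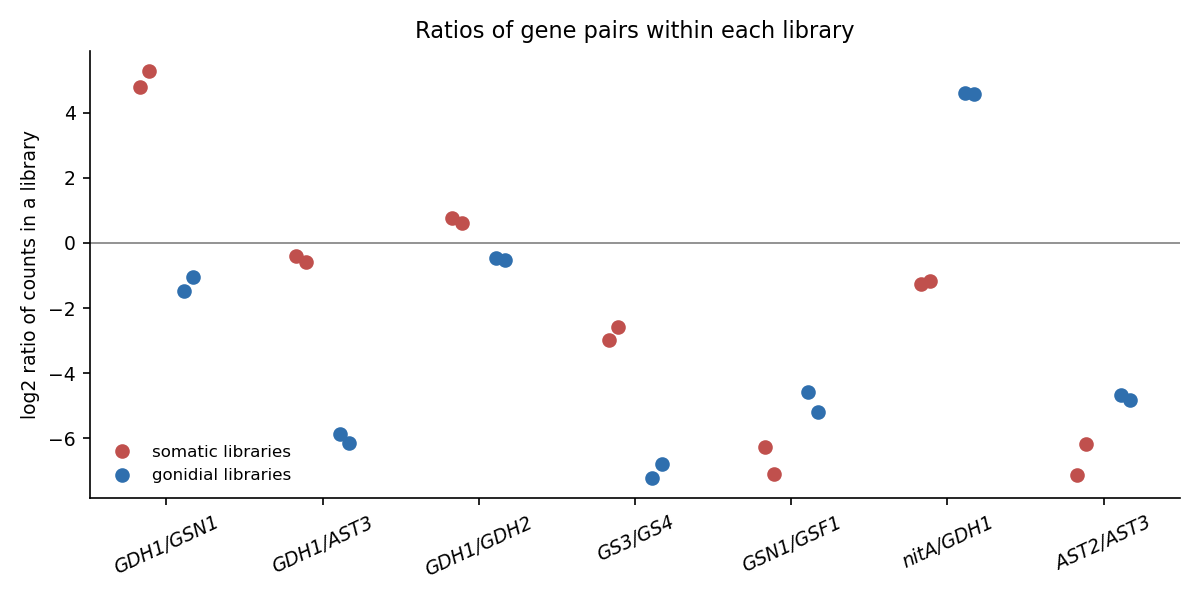
Log2 ratio of the counts of 2 genes within a library, for 7 gene pairs, with 1 point for each somatic (red) and gonidial (blue) library. Libraries of a cell-type lie closer to each other than to those of the other cell-type for every pair, with the widest distance for GDH1/GSN1 (6.29). Counts are not divided by transcript length, so the position against 0 is not an order of levels.

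The order of levels per kilobase also differed between the cell-types. In somatic cells, among the 14 genes, GS2 came first with a mean of 5264 normalized counts per kilobase, followed by GS1 with 1141, GDH1 with 707.5, GSF1 with 499.3 and AST3 with 492.3. Libraries of GSF1 and AST3 overlapped, as did those of ASNS and GDH2 (218.6 and 212.7) and those of AST2 and AST5 (7.14 and 5.47), while all other neighbours were separate. At the low end stood GSN1 with 3.94 and AST1 with 2.16 normalized counts per kilobase.

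In gonidia GS2 was again first, with a mean of 6347 normalized counts per kilobase, but AST3 followed with 2619, ahead of GS1 with 2228, GS4 with 1550 and GSF1 with 1316. nitA, with 690.2, was not separate from ASNS, with 634.7, nor was AST5, with 45.44, from GSN1, with 38.25. GDH1 stood at 83.93 and GDH2 at 57.03 normalized counts per kilobase. GS3 was last, with 11.02. GDH1 thus had rank 3 of the 14 genes in somatic cells and rank 9 in gonidia, and AST3 had rank 5 in somatic cells and rank 2 in gonidia.

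The carbon skeletons that receive the amino groups come from the TCA cycle and from carboxylation of phosphoenolpyruvate. Of 18 enzymes and enzyme subunits on the routes to and from 2-oxoglutarate and oxaloacetate, 1 was called somatic, 10 gonidial and 7 neither, beside 26.0% somatic and 46.7% gonidial calls among all genes, with a median log2 fold change of -1.77. With TMM 9 were called gonidial, beside 38.0% of all genes, and with DESeq2's size factors 8, beside 36.2%. The only somatic call was PCK2, a phosphoenolpyruvate carboxykinase, which uses oxaloacetate. Its paralogs PCK1 and PCK3 were called gonidial, at log2 fold changes of -2.02 and -4.56. Their counts were low, at most 16.27 normalized counts in a library for PCK1 and 62.39 for PCK3. PCK2 had 307.3 and 464.7 normalized counts in the somatic libraries, against 6.24 and 6.51 in the gonidial libraries, a log2 fold change of 5.90 (SE 0.480, adjusted p = 6.77e-11 in the edgeR quasi-likelihood test). The largest change toward gonidia was that of IDH3, an NADP-dependent isocitrate dehydrogenase that makes 2-oxoglutarate. It had 5.37 and 5.90 normalized counts in the somatic libraries, against 785.1 and 611.9 in the gonidial libraries, a log2 fold change of -6.92 (SE 0.449, adjusted p = 2.31e-12 by edgeR's quasi-likelihood fit).

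For each of the 9 genes, the carbon metabolism gene with the nearest pattern was sought among 128 tested genes, by the Euclidean distance of centred log2(normalized count + 1) over the 4 libraries. Since the 4 libraries form 2 groups, genes with like changes between the cell-types are near each other, and the distance is a description only. The gene nearest to nitA was DLD2, a dihydrolipoyl dehydrogenase of the oxoglutarate dehydrogenase complex (distance 0.128, against a median of 1.76 over the list). Near AST1 was DLA2, an E2 subunit of the chloroplast pyruvate dehydrogenase complex (0.125), near AST5 was KAS2, a ketoacyl-ACP synthase (0.111), and near AST3 was Vocar.0006s0374, a carboxyltransferase subunit of acetyl-CoA carboxylase (0.133). These last 3 genes belong to fatty acid biosynthesis. The share of that pathway in the list of 128 was not counted, so no link to it is read from this.

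AST2 was nearest to PEPC2, a phosphoenolpyruvate carboxylase that makes oxaloacetate (0.299). PEPC2 had 66.61 and 193.1 normalized counts in the somatic libraries, against 2853 and 2249 in the gonidial libraries. Its somatic replicate 2 was the higher one, as it was for every member except GSN1. The somatic members had less close neighbours. GDH1 was nearest to Vocar.0012s0263, an acyl-CoA oxidase of fatty acid breakdown (0.616, against a median of 4.29), and GS3 and GDH2 were both nearest to AMB1, a beta-amylase of starch degradation (0.614 and 0.345). The neighbour of GSN1, the phosphoglycerate mutase gene PGM5 (0.264), had 0 counts in both somatic libraries, against 11.44 and 5.42 normalized counts in the gonidial libraries, so that its distance rests on few counts and on the 1 count added.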

How the data were processed

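The authors deposited raw counts of reads per gene model for 2 somatic and 2 gonidial libraries, without normalization or pooling. Per the methods, single-end reads from polyA-selected RNA were trimmed with Trimmomatic, aligned with STAR to the V2 genome assembly, and uniquely mapped reads were assigned with HTSeq to merged gene models; the submitters' processing notes name bcl2fastq 1.8.4 and DESeq2. Whether counting used strand is not given in the sources used here.

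Library sizes were totals without the upper 0.3% quantile, which left 7654668 and 9751905 counts in somatic and 7908964 and 7580528 in gonidial libraries. Genes without counts and the bottom 10% by mean were removed, and the 13350 others were fitted in 1 model with cell-type as the only term (edgeR's quasi-likelihood test, Benjamini-Hochberg adjustment, 2 residual and 17.1 prior degrees of freedom). Fold changes carry Wald errors. Per-kilobase values use transcript lengths worked out from the study's length-scaled means and the counts. Shares and sums rest on them, tests do not. Within-library ratios had 0.5 counts added.

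Members and lists were chosen with earlier results of these data known, and the study had itself named most of the 9 genes for their expression in these libraries, so their calls are no independent evidence. Named are the 9 members, the 5 further genes, the carbon skeleton gene changing most toward each cell-type, the paralogs of PCK2, markers, and for each member its nearest carbon metabolism gene. Alternatives were scaling by TMM, by plain totals or by DESeq2's size factors, DESeq2's own Wald test, glmTreat, no filter, filterByExpr, the replicate number as a block, each library left out, other added counts, and counts not scaled by length. The edgeR p-values set a change against the spread between separate preparations, with the variance of a gene drawn mostly from all genes (17.1 prior against 2 residual degrees of freedom). They do not separate cell-type from the purification that went with it. Counting intervals and floors cover counting error only, and PCR copies are not independent molecules. The intervals on log2 fold changes rest instead on the standard errors of edgeR's fit. The fit was also run on simulated counts in which few genes changed, as many up as down. That run does not test the scaling of the libraries. Tools were edgeR 4.0.16 and DESeq2 1.42.0 under R 4.3.3, and matplotlib 3.10.9, scipy 1.17.1, pandas 2.3.3 and numpy 2.4.6 under Python 3.11.15.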

Additional observations from a re-analysis of the deposited data

How the results depend on the processing

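The 9 calls were the same under each of the 12 alternatives, 108 of 108 values, with 3 somatic and 6 gonidial calls throughout. Scaling mattered for the weaker changes. With TMM and with DESeq2's size factors, 1 of the 5 further amino acid genes was called gonidial in place of 3, and the log2 fold change of GS2 was 0.33 and 0.44 in place of -0.27. Summed levels gave log2 ratios of -1.89 and -1.77 for aspartate aminotransferase (-2.48 as reported), 3.31 and 3.42 for glutamate dehydrogenase (2.71), -0.84 and -0.72 for GOGAT (-1.43), and 0.0148 and 0.128 for glutamine synthetase (-0.583). The last was -0.461 with plain totals. Without scaling by length, the glutamate dehydrogenase ratio was 2.51 and the glutamine synthetase ratio -0.667.

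With each library left out in turn, the ratios lay between -2.68 and -2.30 for aspartate aminotransferase, 2.58 and 2.85 for glutamate dehydrogenase, -1.72 and -1.19 for GOGAT, and -0.609 and -0.556 for glutamine synthetase. The values -2.68 and -1.72 were those without somatic replicate 2. The lone library of a cell-type was then assumed to vary like the other group. Between 3 and 4 further amino acid genes were then called gonidial, and 9 to 12 of the carbon skeleton genes.

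Replicate numbers do not pair the libraries, since a culture gave 1 cell-type, and same-numbered deviations correlated at r = -0.0392 across 13350 genes. A fit with the replicate number as a block called 3449 somatic and 6215 gonidial genes, against 3471 and 6233, and 3 and 6 of the 9 members.

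Depth limits AST1 most, with 3 and 8 somatic counts. Replicates differed by over 2-fold for 12.7% of genes in somatic and 5.64% in gonidial libraries.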
